A study of Homo sapiens with 12 samples.

Results

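Interferon-stimulated genes are the genes that cells switch on after an interferon binds its receptor, and 41 of them were followed here by symbol through every library of the study. They make up 41 of the 26364 genes in the count table, and all 41 passed the filter on low counts, IFI27 and XAF1 only through the siRNA libraries. The members were listed by name, and earlier results of these data were known when they were chosen. By role, 1 is a signal transducer and 5 were listed with the ISG15 conjugation system, HERC6 as a relative of its ligase HERC5. To the IFIT family belong 4 and to the IFITM family 3. Of the others, 4 are large GTPases, 8 are other antiviral effectors and 5 carry the IFI name. The last are 4 PARP or DTX3L genes, 3 TRIM ligases and 4 that stand outside these families.

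Bulk RNA was sequenced from an established line of human melanoma cells, A2058, in 4 groups of 3 libraries. The groups were cells transfected with a siRNA against MITF, cells transfected with a scrambled siRNA, cells transduced with a pLVX lentiviral vector carrying MITF, and cells transduced with the same vector without an insert. MITF is the transcription factor that drives the melanocyte programme. Both siRNA groups were lipofected with Lipofectamine for 48 hours, and both vector groups were spun with virus in polybrene and selected in puromycin. The labels' shared protocol does not say whether the siRNA groups were also transduced, or whether the transduced cells were a pool or a clone. The replicates are named as biological, without saying how far they were cultured apart, so a p-value here speaks only of the spread among these libraries. In bulk RNA, fewer cells that express a gene and less RNA of it per cell cannot be told apart.

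Type I interferons bind the IFNAR1 and IFNAR2 receptor chains, which activate the kinases JAK1 and TYK2. These phosphorylate STAT proteins, among them STAT2, which joins IRF9 in a complex that binds the interferon-stimulated response element in the promoters of target genes. The products of those genes block virus entry, translation and budding, and several of them, such as STAT2, IRF9 and the brake USP18, act on the pathway itself.

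The response element is shown first because it is a sequence that many members share and that their selection by name did not use. Promoter windows from RefSeq (GRCh38.p14), 250 bases before to 50 after each annotated start, were found for 35 of the 41 members. The core of the element, GAAA, any 2 bases and GAAA on either strand, was in the window of 26 of those members (74.3%), against 4.38% of all 27305 genes with a window. The neighbours PARP9 and DTX3L were both counted for the same site. The gamma-activated site, TTCNNNGAA, which reads the same on both strands, was in 8 members (22.9%), against 9.38% of all genes. The motifs were counted separately, whether or not they overlapped. In 24 of the 26 members with such a match, the match nearest the start began upstream of it. In IFIT5, IFITM1 and DTX3L it ran on across the start. The match nearest the start began at most 100 bases upstream in 18 members, with a median of 54.5 bases over the 26. The 60 bases around that match are given below for 8 members. They were chosen among genes that the comparisons turn on, and only where all 60 bases lay upstream of the start. The match is in capitals and each sequence is read in the direction of its gene.
IFI27 (chr14:94110616-94110675, plus strand): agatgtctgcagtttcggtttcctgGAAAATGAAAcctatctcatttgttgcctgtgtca
BST2 (chr19:17405720-17405779, minus strand): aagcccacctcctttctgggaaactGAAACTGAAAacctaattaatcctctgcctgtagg
IFI6 (chr1:27672251-27672310, minus strand): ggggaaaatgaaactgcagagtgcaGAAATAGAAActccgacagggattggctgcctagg
ISG15 (chr1:1013365-1013424, plus strand): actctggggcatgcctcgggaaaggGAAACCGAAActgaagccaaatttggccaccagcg
IFIT1 (chr10:89392495-89392554, plus strand): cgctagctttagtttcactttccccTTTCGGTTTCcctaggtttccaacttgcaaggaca
IFI44L (chr1:78620350-78620409, plus strand): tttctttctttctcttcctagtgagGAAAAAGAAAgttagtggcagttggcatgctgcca
ISG20 (chr15:88638922-88638981, plus strand): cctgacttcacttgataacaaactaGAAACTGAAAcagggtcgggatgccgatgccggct
GBP1 (chr1:89065301-89065360, minus strand): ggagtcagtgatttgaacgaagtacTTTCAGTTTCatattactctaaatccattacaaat

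In IFIT1 and GBP1 the match is on the opposite strand and reads TTTC, 2 bases and TTTC. These 8 genes share the motif because only members with a match could be printed. They differ in their values, with GBP1 lower in scrambled siRNA cells and ISG20 highest in MITF overexpression cells. A match is a description of letters, and the members without one in this window were STAT2, UBE2L6, HERC6, CMPK2, SAMD9L, IFI35, TRIM25, XAF1 and SP100.

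Total counts ran from 7427637 to 23938392 per library, and libraries of 1 group correlated at Pearson's r of at least 0.9905 over genes. Levels are given as CPM, a gene's reads relative to its library's total after TMM scaling. MITF averaged 657 ± 23.3 CPM in MITF overexpression cells and 304 ± 6.75 CPM in empty vector cells, and 343 ± 21.4 CPM in MITF siRNA cells and 467 ± 36.8 CPM in scrambled siRNA cells (SD, n = 3 each). The counts do not tell the vector's MITF transcript from the cell's own. The melanoma markers PMEL, MLANA, TYR, SOX10 and S100B were all detected. Of the immune cell markers, CD3E had 0 counts in every library and only LYZ passed the filter. The immune markers summed to between 7.20 and 8.12 CPM in MITF siRNA libraries, 4.12 to 4.97 CPM in scrambled siRNA libraries, 0.792 to 1.42 CPM in MITF overexpression libraries and 2.06 to 2.93 CPM in empty vector libraries. Without LYZ they came to between 3 and 20 counts per library.

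The members were high in both siRNA groups and low in both vector groups. Relative to the empty vector mean, the median member stood at log2 0.63, 0.74 and 0.68 in the 3 MITF siRNA libraries and at 0.52, 0.68 and 1.06 in the 3 scrambled siRNA libraries. It stood at 0.21, 0.22 and 0.18 in the MITF overexpression libraries. For 23 members the group means ran with the siRNA groups on top, MITF overexpression below them and the empty vector lowest, in 13 of them with scrambled siRNA first and in 10 with MITF siRNA first. For another 9 members the siRNA groups were on top and MITF overexpression was lowest. Only 9 members had another order of group means, among them MX2, GBP1, ISG20 and TRIM21.

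**Figure D1:**
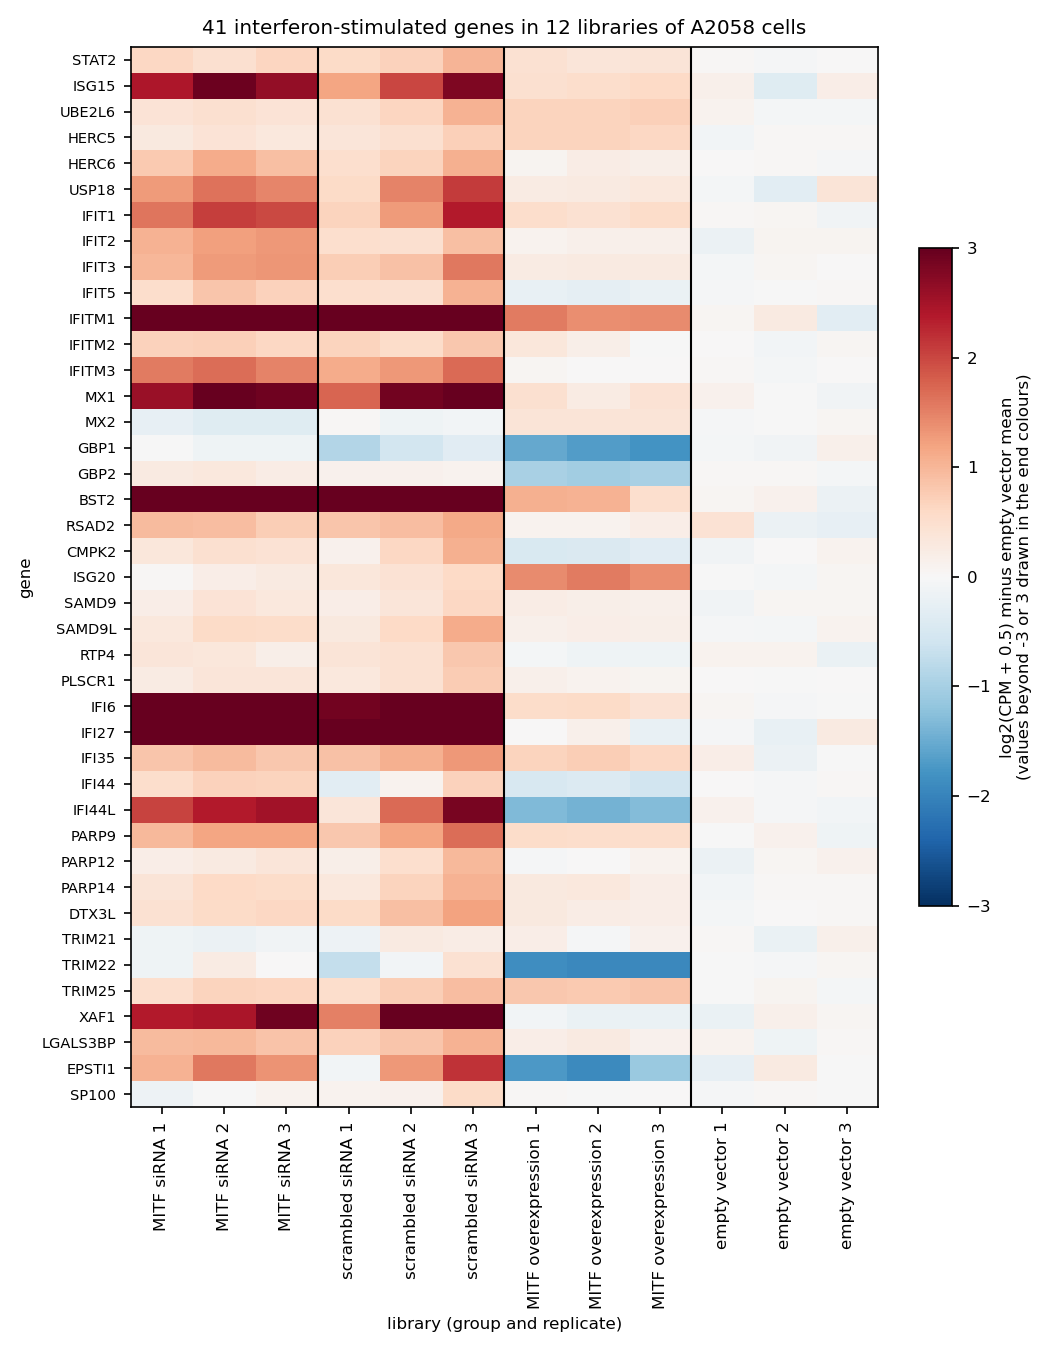
Heat map of 41 interferon-stimulated genes (rows) in 12 libraries (columns, by group and replicate), coloured by log2(CPM + 0.5) minus the empty vector mean of the same gene. The siRNA columns are red for most genes, scrambled siRNA replicate 3 is the darkest column, and GBP1, GBP2, TRIM22, IFI44L and EPSTI1 are blue in the MITF overexpression columns.

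Scrambled siRNA cells were compared with empty vector cells to see how far apart the baselines of the MITF comparisons lie. The quasi-likelihood test of edgeR, adjusted by Benjamini-Hochberg over 14297 genes with a threshold of 0.05, called 33 of the 41 members higher in scrambled siRNA cells and 1 lower. Of all genes tested, 18.9% were called higher and 19.6% lower. The median log2 fold change was 0.74 over the members and -0.00023 over all genes. In 35 members every scrambled siRNA library was above every empty vector library, which held for 23.7% of all genes, and in 1 every one was below, against 24.3%. These groups also differ in transfection. Whether they differ in transduction and selection is not stated, since the siRNA cells may have been transduced too. What each contributes cannot be told apart. IFI27, IFITM1 and XAF1 had the 3 largest fitted rises of all 14297 genes, and 5 members were among the 10 largest and 11 among the 100 largest. IFI27 and XAF1, both among the 33 called, passed the filter on low counts only through the siRNA libraries, where they were high. IFI27, IFITM1 and XAF1 had 3, 12 and 2 empty vector counts, so their places in the ranking are no separate support.

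IFI27, a small mitochondrial membrane protein gene used as a marker of interferon exposure, had 9.72, 19.4 and 55.4 CPM in scrambled siRNA libraries, against 0.0688, 0 and 0.202 CPM in empty vector libraries. That was 1156 counts in scrambled siRNA libraries against 3 counts in empty vector libraries, a 298-fold ratio of CPM with a 95% counting interval of 102 to 1450. Its level was near the limit of detection without siRNA and rose in each scrambled siRNA library (log2 fold change 8.10 ± 1.52 SE, edgeR adjusted p = 0.00297). The counting intervals here cover counting error only. XAF1, whose product binds the apoptosis inhibitor XIAP, had 1.15, 4.43 and 13.3 CPM in scrambled siRNA libraries, against 0, 0.138 and 0.101 CPM in empty vector libraries. With 259 counts in scrambled siRNA libraries against 2 counts in empty vector libraries, its ratio was 100-fold (95% counting interval 27.5 to 833, edgeR adjusted p = 0.0132). The libraries of the groups did not overlap for either gene, and the fitted folds of both depend on a handful of empty vector reads.

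The IFITM proteins sit in membranes and hinder virus entry. IFITM1 had 13.5, 30.3 and 67.3 CPM in scrambled siRNA libraries, against 0.413, 0.550 and 0.202 CPM in empty vector libraries, and rose 98.3-fold (log2 fold change 6.58 ± 1.1, edgeR adjusted p = 0.00152). IFITM3 rose by less, with 181, 206 and 271 CPM in scrambled siRNA libraries, against 86.2, 80.0 and 84.7 CPM in empty vector libraries (log2 fold change 1.39 ± 0.14, adjusted p = 6.27e-05). IFITM2 had 24.0, 22.0 and 26.5 CPM in scrambled siRNA libraries, against 14.9, 14.0 and 15.6 CPM in empty vector libraries (0.70 ± 0.10, adjusted p = 5.07e-07). All 3 rose without overlap, by very different amounts. The IFITM genes are near-identical in sequence, and reads that fit several of them may have been split, so they are uncertain as single genes.

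BST2, or tetherin, which holds budding virus particles at the cell surface, had 12.5, 22.5 and 44.9 CPM in scrambled siRNA libraries, against 1.03, 1.1 and 0.809 CPM in empty vector libraries (log2 fold change 4.76 ± 0.76, edgeR adjusted p = 0.00117). IFI6, a membrane protein gene related to IFI27, had 176, 259.8 and 479 CPM in scrambled siRNA libraries, against 24.3, 23.0 and 23.1 CPM in empty vector libraries (3.70 ± 0.41, adjusted p = 0.000112). MX1, a dynamin-like GTPase that traps viral nucleocapsids, had 10.1, 22.8 and 41.1 CPM in scrambled siRNA libraries, against 2.96, 2.61 and 2.43 CPM in empty vector libraries (3.19 ± 0.61, adjusted p = 0.00334). In each of these genes the lowest scrambled siRNA library was above the highest empty vector library, and the scrambled siRNA libraries were spread wide.

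ISG15, the ubiquitin-like protein that is attached to other proteins during the response, had 23.8, 42.6 and 74.3 CPM in scrambled siRNA libraries, against 11.5, 7.84 and 11.9 CPM in empty vector libraries (log2 fold change 2.13 ± 0.46, edgeR adjusted p = 0.0064). All 5 genes listed with its system rose. UBE2L6 encodes the enzyme that carries ISG15 and had a log2 fold change of 0.74 ± 0.12. The ligase gene HERC5 had 0.54 ± 0.07 and its relative HERC6 0.78 ± 0.14, and USP18, which removes ISG15 and brakes the receptor, had 1.61 ± 0.42. STAT2, the signal transducer of the set, had 101, 109.6 and 139 CPM in scrambled siRNA libraries, against 70.1, 66.2 and 68.3 CPM in empty vector libraries (0.77 ± 0.10, adjusted p = 0.000103).

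The IFIT proteins bind viral RNA that lacks the cell's own cap marks. IFIT1 had 13.2, 20.5 and 44.0 CPM in scrambled siRNA libraries, against 8.40, 8.53 and 7.48 CPM in empty vector libraries (log2 fold change 1.67 ± 0.47, edgeR adjusted p = 0.0224). IFIT3, its partner, had a log2 fold change of 1.15 ± 0.24, IFIT2 0.71 ± 0.14 and IFIT5 0.72 ± 0.15, and all 4 were called. IFI44L, a gene with a feedback role in the response, had 9.41, 24.7 and 55.5 CPM in scrambled siRNA libraries, against 7.91, 7.02 and 6.88 CPM in empty vector libraries (2.02 ± 0.64, adjusted p = 0.0356). Its scrambled siRNA replicate 1 lay close above the empty vector libraries. IFI35 rose with a log2 fold change of 1.07 ± 0.10, and its neighbour in name IFI44 was not called at 0.23 ± 0.22.

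All 8 of the other antiviral effectors, BST2 included, were called higher, from a log2 fold change of 0.42 ± 0.10 for SAMD9 to 4.76 for BST2. Among them were RSAD2, or viperin, which makes a chain-ending nucleotide (75 counts in scrambled siRNA libraries and 25 counts in empty vector libraries, 1.22 ± 0.33), and the nuclease gene ISG20 (0.49 ± 0.12). PLSCR1 (0.52 ± 0.09), RTP4 (0.58 ± 0.13), SAMD9L (0.72 ± 0.20) and CMPK2 (0.70 ± 0.19) completed the group. The ADP-ribosyltransferase genes PARP9 (1.29 ± 0.22), PARP12 (0.61 ± 0.19) and PARP14 (0.71 ± 0.17) rose with DTX3L (0.93 ± 0.15), the ubiquitin ligase that works with PARP9. TRIM25, a ligase that activates the RNA sensor RIG-I, rose by 0.74 ± 0.08. LGALS3BP, a secreted glycoprotein, had 936, 1027 and 1192 CPM in scrambled siRNA libraries, against 619, 526 and 597 CPM in empty vector libraries (0.86 ± 0.08, edgeR adjusted p = 6.73e-06).

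GBP1, a guanylate-binding GTPase that interferon gamma induces strongly, was the 1 member called lower. It had 25.3, 31.7 and 36.5 CPM in scrambled siRNA libraries, against 44.5, 43.6 and 52.3 CPM in empty vector libraries (log2 fold change -0.59 ± 0.11, edgeR adjusted p = 0.000377). The members not called were MX2 (-0.05 ± 0.06), GBP2 (0.13 ± 0.06), IFI44, TRIM21 (0.11 ± 0.12), TRIM22 (-0.03 ± 0.25), SP100 (0.29 ± 0.12) and EPSTI1 (1.69 ± 0.66). The large GTPases were thus divided, with MX1 higher, GBP1 lower and MX2 and GBP2 not called. Leaving empty vector replicate 1 out ended the calls of USP18, IFIT1, CMPK2, SAMD9L, IFI44L, PARP12 and XAF1 and left 26 members called higher and 1 lower, against 15.2% and 16.6% of all genes. A fit on the 6 compared libraries alone called 24 members higher, against 19.6% of all genes, without those 7, ISG15 and PARP14. Of the members with a response element match in their promoter window 22 of 26 were called higher, and of those without one 8 of 9. LYZ was also higher in scrambled siRNA cells (0.82), while the other immune markers had 6 to 9 counts in scrambled siRNA libraries and 3 to 8 in empty vector libraries, and its part was not tested.

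**Figure D2:**
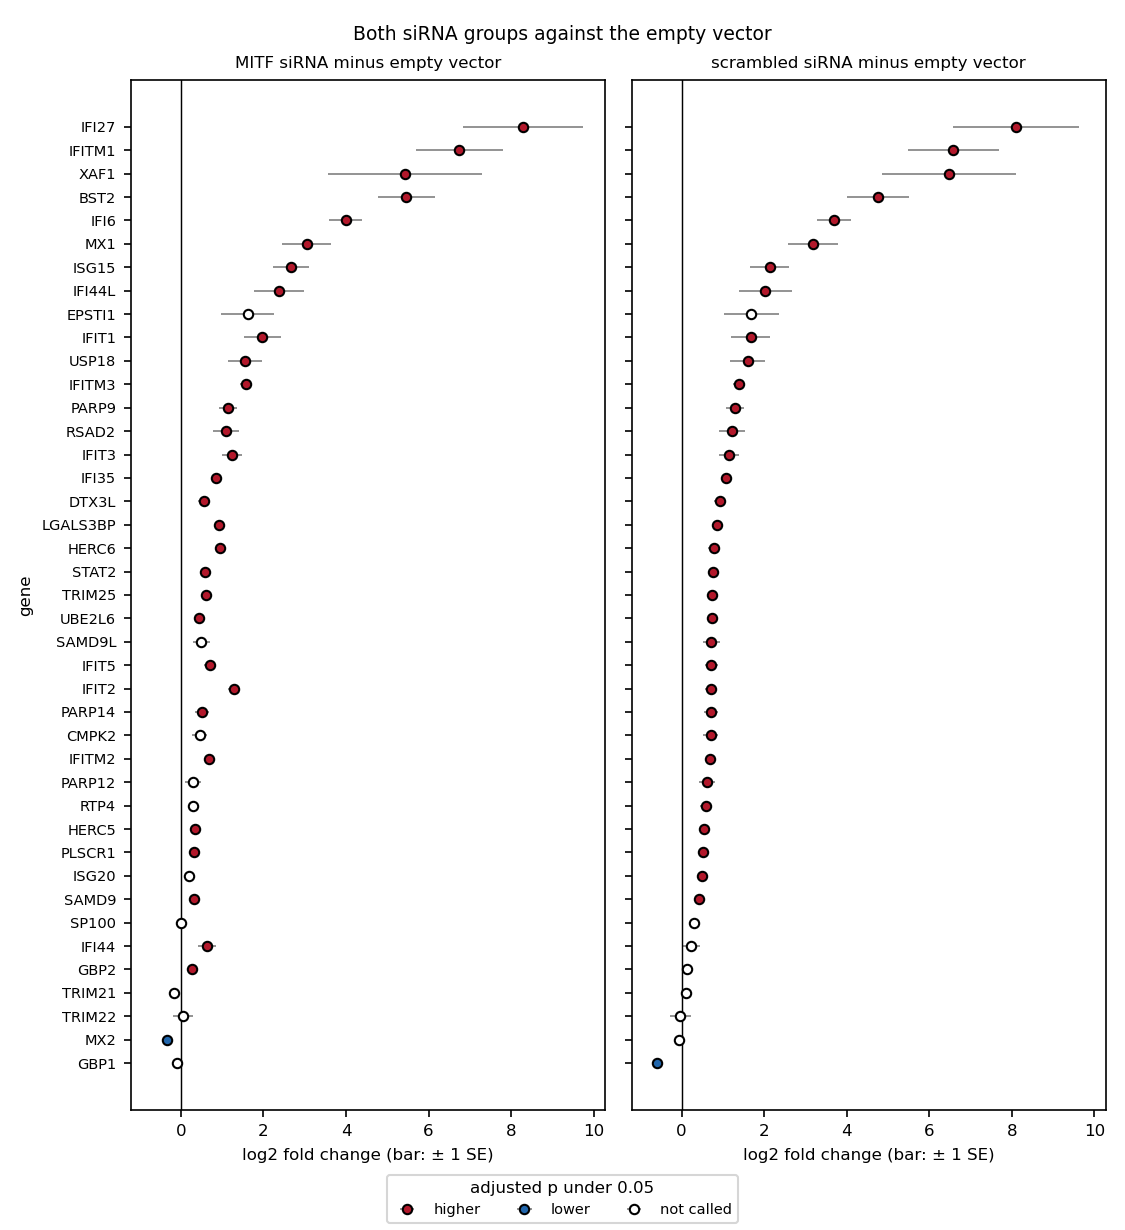
Log2 fold change (x axis, bars ± 1 SE) of 41 members (rows) for MITF siRNA minus empty vector and for scrambled siRNA minus empty vector, with filled points called at an adjusted p under 0.05. IFI27, IFITM1, XAF1, BST2 and IFI6 lie farthest right in both panels, GBP1 is the only gene called lower with scrambled siRNA and MX2 the only one with MITF siRNA.

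MITF siRNA cells were also set against empty vector cells, a comparison added after the data were examined, because these groups had close MITF levels (343 and 304 CPM). It shares the empty vector libraries with the comparison above, so the values are given side by side and are not independent of it. In MITF siRNA cells 30 members were called higher and 1 lower, against 21.8% and 20.8% of all genes, with a median log2 fold change of 0.69. IFI27 had 28.9, 40.5 and 27.5 CPM in MITF siRNA libraries, which is 1924 counts against 3 counts in empty vector libraries (338-fold, 95% counting interval 115 to 1639). BST2 had 37.1, 51.4 and 41.5 CPM in MITF siRNA libraries (log2 fold change 5.46 ± 0.69 against the empty vector), and IFITM1 had 37.8, 50.1 and 37.1 CPM (6.75 ± 1.06). ISG15 had 57.1, 82.6 and 66.5 CPM in MITF siRNA libraries (2.68 ± 0.43) and IFI6 had 348, 437 and 338 CPM (3.99 ± 0.40). These genes were far above the empty vector in every siRNA library, and the 3 MITF siRNA libraries lay closer together than the 3 scrambled siRNA libraries.

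GBP1 was not called in MITF siRNA cells against empty vector cells (log2 fold change -0.09 ± 0.10), GBP2 was called higher (0.27 ± 0.06) and MX2 was called lower (-0.33 ± 0.06, edgeR adjusted p = 9.05e-06). MX2, a GTPase that blocks the nuclear entry of HIV, had 59.9, 55.9 and 55.6 CPM in MITF siRNA libraries, against 69.4, 70.7 and 74.7 CPM in empty vector libraries. It was the only member below the empty vector without overlap. IFI44 (0.64 ± 0.21, adjusted p = 0.0403) and XAF1 (5.43 ± 1.86, adjusted p = 0.0451) were called higher, and both lost the call when any 1 library other than scrambled siRNA replicates 1 and 3 was left out of the shared fit. Without empty vector replicate 1, 24 members were called higher, against 18.9% of all genes.

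The scrambled siRNA libraries differed among themselves in these genes far more than the libraries of any other group. The ratio of the highest to the lowest library, with 0.5 CPM added to each, had a median of 1.51 over the members in scrambled siRNA cells and ran from 1.02 to 8.38. The same median was 1.16 in MITF siRNA cells, 1.07 in MITF overexpression cells and 1.13 in empty vector cells, and over all genes it was 1.12 in scrambled siRNA cells. Scrambled siRNA replicate 3 was the highest of its group in 38 of the 41 members and replicate 1 the lowest in 36, against 35.8% and 35.7% of all genes. Replicate 3 was also the highest of all 12 libraries in 32 members, against 7.46% of all genes. XAF1, IFI44L, IFI27, IFITM1 and EPSTI1 were the most spread, and GBP2 and MX2, which were not called between scrambled siRNA and empty vector cells, the least.

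IFI44L shows the size of this spread, with 55.5 CPM in scrambled siRNA replicate 3 and 9.41 CPM in replicate 1. EPSTI1, first described in breast cancer cells grown with stromal fibroblasts, had 1.61, 4.99 and 9.63 CPM in scrambled siRNA libraries, against 1.38, 2.20 and 1.72 CPM in empty vector libraries. Its groups overlapped only through scrambled siRNA replicate 1. The transducer IRF9, with 25.3, 38.7 and 47.6 CPM, was also highest in replicate 3 and lowest in replicate 1. MITF, with 504.2, 465 and 431 CPM in scrambled siRNA replicates 1, 2 and 3, was lowest in replicate 3, and its part in the spread was not tested. The total counts of the 3 libraries were close, at 13100703, 14287537 and 13618880.

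**Figure D3:**
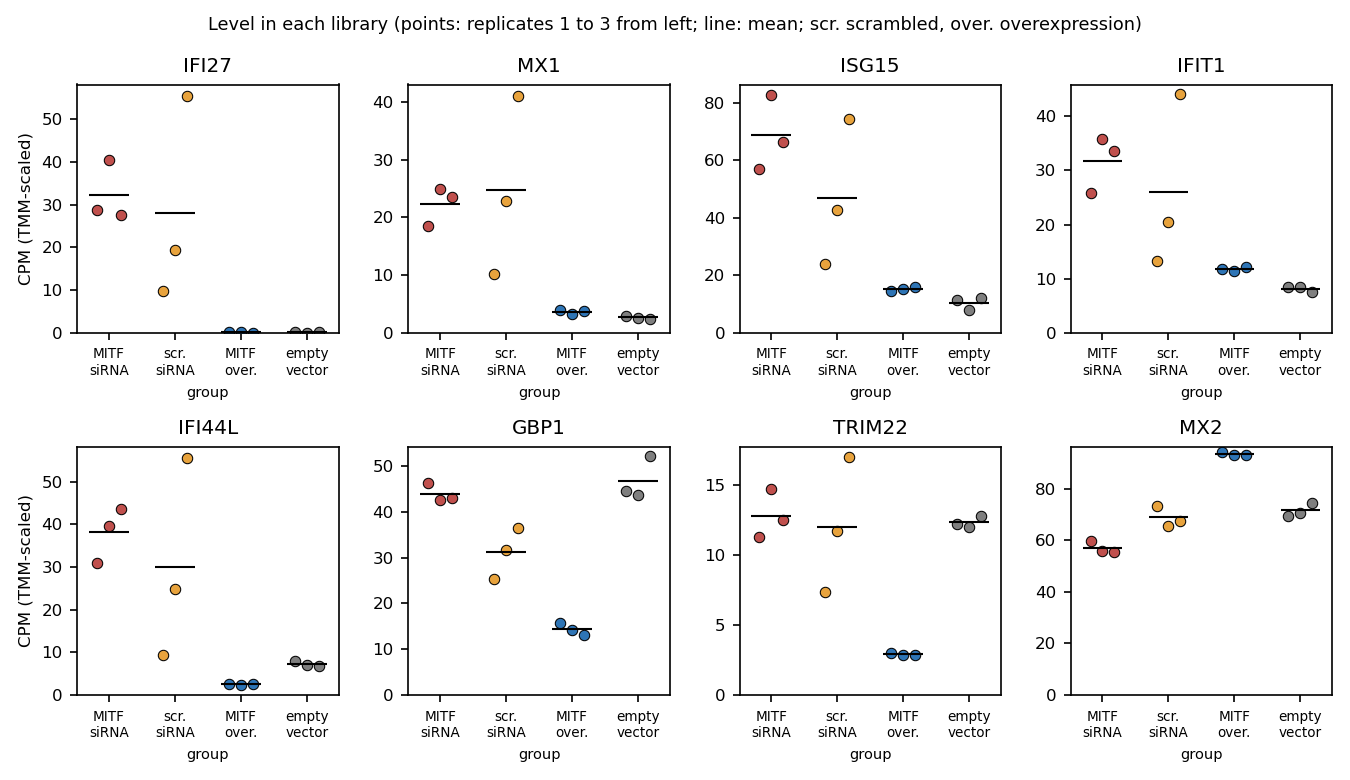
CPM (y axis, from 0) of 8 members in each library (points, replicates 1 to 3 from left) with the mean of each group (line). The scrambled siRNA points are spread wide for IFI27, MX1, ISG15, IFIT1, IFI44L and TRIM22, with replicate 3 highest, while MITF overexpression stands apart below for GBP1 and TRIM22 and above for MX2.

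MITF siRNA against scrambled siRNA is the study's knockdown comparison. Few members were called between these groups, but the scrambled siRNA libraries were spread wide, so a member not called may still differ. BST2 (log2 fold change 0.70 ± 0.35), ISG15 (0.55 ± 0.33) and XAF1 (-1.05 ± 0.65) were among those not called. In MITF siRNA cells 3 members were called higher and 6 lower by the edgeR quasi-likelihood test, against 18.7% and 16.7% of all genes, and the median log2 fold change was -0.093 over the members and -0.0026 over all genes. Libraries did not overlap in 3 higher and 3 lower members, against 23% and 21.4% of all genes. In 35 members the groups overlapped. LYZ was higher in MITF siRNA cells (0.86), with 8 to 20 counts of the other immune markers in MITF siRNA libraries and 6 to 9 in scrambled siRNA libraries, and its part was not tested.

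IFIT2 had 13.4, 15.4 and 16.3 CPM in MITF siRNA libraries, against 9.18, 9.06 and 12.3 CPM in scrambled siRNA libraries, and rose without overlap (log2 fold change 0.57 ± 0.11, edgeR adjusted p = 8.51e-05). GBP1 had 46.2, 42.7 and 42.9 CPM in MITF siRNA libraries, against 25.3, 31.7 and 36.5 CPM in scrambled siRNA libraries (0.49 ± 0.10, adjusted p = 0.00114). GBP2, its close relative, had 61.0, 63.0 and 58.7 CPM in MITF siRNA libraries, against 55.0, 55.8 and 54.9 CPM in scrambled siRNA libraries (0.14 ± 0.05, adjusted p = 0.0372). Of the members called lower, MX2 had 59.9, 55.9 and 55.6 CPM in MITF siRNA libraries, against 73.5, 65.6 and 67.7 CPM in scrambled siRNA libraries (-0.27 ± 0.05, adjusted p = 0.000125). ISG20 had 7.65, 8.60 and 9.08 CPM in MITF siRNA libraries, against 9.49, 10.3 and 11.5 CPM in scrambled siRNA libraries (-0.30 ± 0.11, adjusted p = 0.0262). These 5 genes separated the groups in every library. UBE2L6 (-0.30 ± 0.10), HERC5 (-0.19 ± 0.06), IFI35 (-0.23 ± 0.09) and TRIM21 (-0.27 ± 0.11) were called lower although the libraries of the groups overlapped.

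The direction of this comparison rested on single scrambled siRNA libraries. Without scrambled siRNA replicate 1, 2 members were called higher and 18 lower in MITF siRNA cells, against 17.2% and 15% of all genes. Without scrambled siRNA replicate 3, 13 were called higher and 2 lower, against 14.7% and 14.5%. IFI27 had a log2 fold change of 0.19 with all libraries, -0.21 without scrambled siRNA replicate 1 and 1.12 without replicate 3, and only the last was called (edgeR adjusted p = 0.0241). ISG15 likewise had 0.55 with all libraries, 0.24 without scrambled siRNA replicate 1 and 1.03 without replicate 3. XAF1 had a log2 fold change of -1.05 with all libraries, -1.53 without scrambled siRNA replicate 1 and 0.09 without replicate 3. Leaving out MITF siRNA replicate 1 left 2 members called higher and 1 lower, against 17.5% and 15.2% of all genes. IFIT2 and GBP1 higher and MX2 lower were called in all 19 fits, and each of the other 6 calls was lost in at least 1.

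**Figure D4:**
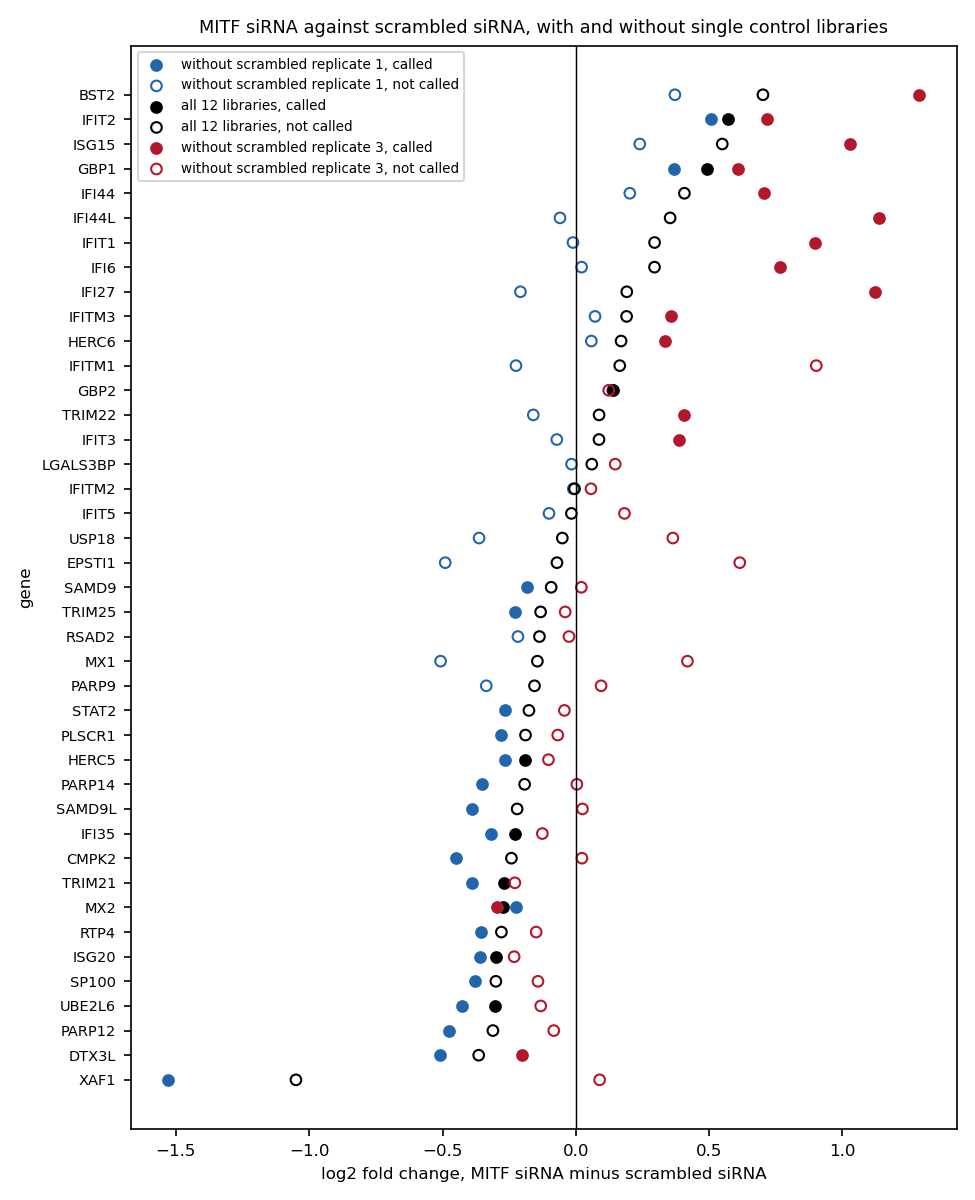
Log2 fold change (x axis) of 41 members (rows) for MITF siRNA minus scrambled siRNA with all 12 libraries (black), without scrambled siRNA replicate 1 (blue) and without scrambled siRNA replicate 3 (red), with filled points called at an adjusted p under 0.05. Blue points lie left and red points right of black for most genes, while IFIT2 and GBP1 stay above 0 and MX2 below 0 in all 3 fits.

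MITF overexpression against the empty vector is the study's comparison for raised MITF. The members moved in both directions, with ISG20, TRIM25, UBE2L6, HERC5, IFI35, STAT2 and MX2 higher and TRIM22, GBP1 and GBP2 lower. In MITF overexpression cells 7 members were called higher and 3 lower, against 28.6% and 30.8% of all genes and 59.4% in either direction. The median log2 fold change was 0.19 over the members and 0.0037 over all genes. Libraries did not overlap in 23 higher and 8 lower members, against 32% and 33.2% of all genes.

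ISG20, an exonuclease that degrades viral RNA, had 20.8, 22.9 and 20.5 CPM in MITF overexpression libraries, against 7.36, 7.16 and 7.79 CPM in empty vector libraries (log2 fold change 1.52 ± 0.11, edgeR adjusted p = 1.77e-14). It was the largest rise among the called members, and its siRNA levels of at most 11.5 CPM were far below. TRIM25 had 163, 159.9 and 166 CPM in MITF overexpression libraries, against 91.9, 98.4 and 89.5 CPM in empty vector libraries (0.81 ± 0.08, adjusted p = 9.64e-07). In the ISG15 system UBE2L6 had 26.8, 27.2 and 28.1 CPM in MITF overexpression libraries, against 18.2, 16.2 and 16.1 CPM in empty vector libraries (0.68 ± 0.11, adjusted p = 3.18e-05). HERC5 had 66.0, 65.6 and 63.7 CPM in MITF overexpression libraries, against 39.2, 42.4 and 42.5 CPM in empty vector libraries (0.66 ± 0.07, adjusted p = 4.6e-10). Both enzymes rose without overlap, while ISG15 itself, with 14.5, 15.1 and 15.8 CPM in MITF overexpression libraries, was not called (0.49 ± 0.52). IFI35 (0.65 ± 0.10), STAT2 (0.40 ± 0.10) and MX2 (0.39 ± 0.05) were the other members called higher. MX2 had 94.4, 93.3 and 93.2 CPM in MITF overexpression libraries, above every library of the other groups.

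TRIM22, a ligase that limits influenza virus and HIV, had 3.01, 2.84 and 2.84 CPM in MITF overexpression libraries, against 12.2, 12 and 12.7 CPM in empty vector libraries (log2 fold change -2.08 ± 0.30, edgeR adjusted p = 0.000153). GBP1 had 15.7, 14.2 and 13.1 CPM in MITF overexpression libraries, against 44.5, 43.6 and 52.3 CPM in empty vector libraries (-1.70 ± 0.11, adjusted p = 1.37e-09). GBP2 had 25.7, 24.4 and 25.7 CPM in MITF overexpression libraries, against 51.5, 51.5 and 48.7 CPM in empty vector libraries (-1.0 ± 0.06, adjusted p = 3.36e-16). All 3 lay below every library of the other groups. LYZ, the immune marker that passed the filter, fell with them (-2.36), while the other immune markers stayed at 18 counts or fewer in these libraries; its part was not tested.

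The wide scrambled siRNA libraries entered the shared estimate of spread and bear on this comparison without being part of it. Fitted on the 6 vector libraries alone, the same test called 21 members higher and 8 lower of the 39 that passed the filter, against 30.8% and 31.8% of all genes. For the members named next the fold changes were nearly those of the shared fit and the errors smaller. ISG15 was then called at 0.49 ± 0.11 (edgeR adjusted p = 0.000158), IFI6 at 0.53 ± 0.07 and IFIT1 at 0.53 ± 0.11. IFITM1 had 2.10, 1.81 and 1.85 CPM in MITF overexpression libraries, against 0.413, 0.550 and 0.202 CPM in empty vector libraries, and was called in that fit at 2.33 ± 0.36. IFI44L had 2.6, 2.40 and 2.64 CPM in MITF overexpression libraries, against 7.91, 7.02 and 6.88 CPM in empty vector libraries, and was called lower there (-1.53 ± 0.16). EPSTI1, with 14 counts in MITF overexpression libraries and 53 in empty vector libraries, was also called lower there (-2.74 ± 0.42). Neither of these was called in the fit of all 12 libraries, where EPSTI1 had an adjusted p of 0.07 and IFI44L of 0.186. Without scrambled siRNA replicate 1, 12 members were called higher and 6 lower, against 28.6% and 30.9% of all genes, and without replicate 3, 15 and 8, against 28.8% and 30.5%. The 10 members called with all 12 libraries were called in all 19 fits. IFI27 and XAF1 had too few reads in these groups for a fold, with 5 and 1 counts in MITF overexpression libraries against 3 and 2 counts in empty vector libraries.

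**Figure D5:**
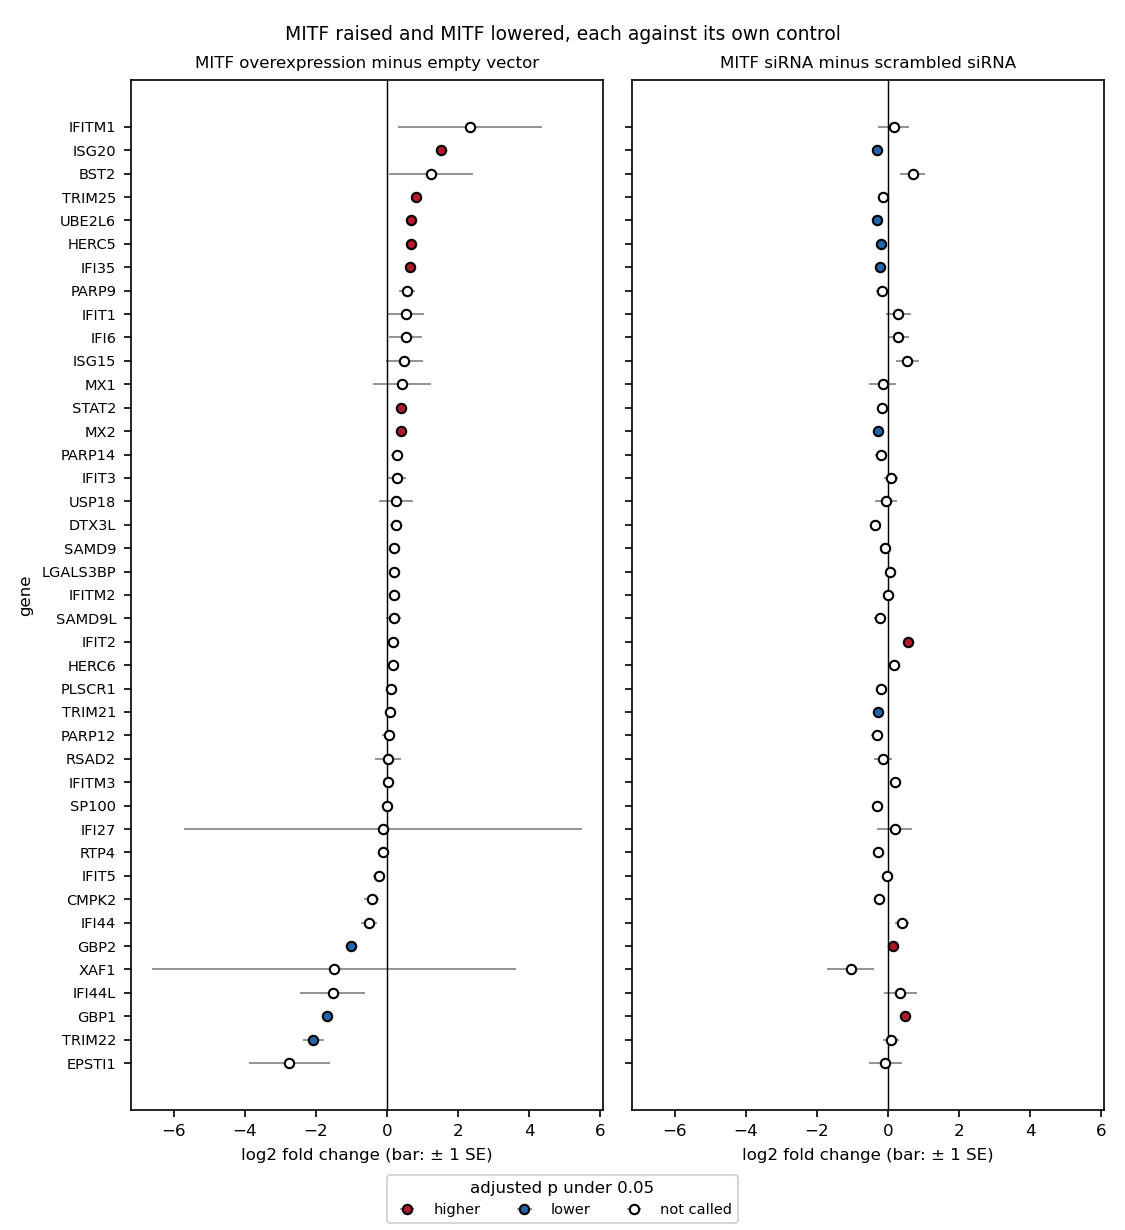
Log2 fold change (x axis, bars ± 1 SE) of 41 members (rows) for MITF overexpression minus empty vector and for MITF siRNA minus scrambled siRNA, with filled points called at an adjusted p under 0.05. GBP1 and GBP2 are lower with MITF overexpression and higher with MITF siRNA, MX2, ISG20, UBE2L6, HERC5 and IFI35 are higher with overexpression and lower with siRNA, and the errors of IFI27 and XAF1 span 0 widely in the left panel.

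The difference between the responses, overexpression minus empty vector less MITF siRNA minus scrambled siRNA, was tested as an interaction. It was above 0 in 9 members and below 0 in 4 by the edgeR adjusted p, against 27.1% and 29.8% of all genes and 56.9% in either direction. MX2 (0.66 ± 0.08), ISG20 (1.82 ± 0.15), UBE2L6 (0.99 ± 0.15), HERC5 (0.86 ± 0.09) and IFI35 (0.87 ± 0.13) were called in this test and in both comparisons, with opposite signs in the comparisons. GBP1 (-2.19 ± 0.15) and GBP2 (-1.14 ± 0.08) had the reverse pattern, lower with MITF overexpression and higher with MITF siRNA. Responses of opposite sign add up in the difference, so for genes called in both comparisons its call was nearly fixed and is no further support. Among the genes with opposite signs, only MX2 and GBP1 kept the call against scrambled siRNA in all 19 fits. STAT2 (0.58 ± 0.14), TRIM25 (0.94 ± 0.11), DTX3L (0.61 ± 0.20) and TRIM21 (0.36 ± 0.15) were the other members above 0, and TRIM22 (-2.17 ± 0.37) and IFI44 (-0.91 ± 0.30) the others below, of which DTX3L, TRIM21 and IFI44 lost the call in at least 1 other fit. IFIT2, which rose with MITF siRNA, did not pass the test of the difference (-0.40 ± 0.18, adjusted p = 0.0603). The genes with the largest siRNA rises, IFI27, IFITM1, XAF1, BST2, IFI6 and MX1, were not called, and their errors ran from 0.55 to 5.94 on the log2 scale.

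The rest of the pathway was read from 33 listed genes, of which 20 were tested. None of the 11 listed interferon genes passed the filter. IFNB1, the first type I interferon made by infected cells, had at most 2 counts in any library and 0 in the scrambled siRNA libraries. IFNA1, IFNA2, IFNG, IFNW1, IFNL2 and IFNL3 had 0 counts in all 12 libraries, and IFNK, with at most 11 counts, was the most counted. A count of 0 allows up to 0.127 CPM in the deepest library and 0.413 CPM in the shallowest. In scrambled siRNA cells IFNK had 11 counts over the 3 libraries, IFNE and IFNL1 had 1 each and the other 8 listed interferon genes 0. In MITF siRNA cells IFNK had 17 counts, IFNE 7, and IFNA5 and IFNB1 1 each. The cells with high interferon-stimulated genes thus held the transcripts of the listed interferons at or near the limit of detection. Interferon genes outside the list were not read.

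Of the 6 receptor genes, 0 were called higher and 4 lower in scrambled siRNA cells against empty vector cells. Of all genes, 18.9% were called higher and 19.6% lower. IL10RB, which serves interferon lambda, had 32.8, 32.7 and 34.3 CPM in scrambled siRNA libraries, against 40.7, 40.3 and 40.7 CPM in empty vector libraries (log2 fold change -0.29 ± 0.06, edgeR adjusted p = 0.000495). IFNGR1 (-0.23 ± 0.07), IFNGR2 (-0.14 ± 0.05) and IFNLR1 (-1.96 ± 0.42, 16 counts in scrambled siRNA libraries and 49 in empty vector libraries) were also lower, and IFNAR1 (-0.10 ± 0.06) and IFNAR2 (-0.0010 ± 0.11) were not called. In MITF siRNA cells against scrambled siRNA cells IFNGR2 (0.44 ± 0.05), IFNAR1 (0.15 ± 0.06) and IFNAR2 (0.27 ± 0.10) were called higher and IFNGR1 (-0.44 ± 0.07) lower. The shares of all genes there were 18.7% higher and 16.7% lower. In MITF overexpression cells 4 receptor genes were called lower against the empty vector, IFNAR1 (-0.36 ± 0.06), IFNGR2 (-0.36 ± 0.05), IFNGR1 (-0.41 ± 0.07) and IL10RB (-0.45 ± 0.06). There 30.8% of all genes were called lower.

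Among the further transducers, IRF9 and JAK2 were called higher in scrambled siRNA cells against empty vector cells, where 18.9% of all genes were called higher. IRF9 had 25.3, 38.7 and 47.6 CPM in scrambled siRNA libraries, against 13.8, 12.9 and 13.0 CPM in empty vector libraries (log2 fold change 1.48 ± 0.23, edgeR adjusted p = 0.000825). JAK2, the kinase of the gamma receptor, rose in scrambled siRNA cells (0.74 ± 0.08) and more in MITF overexpression cells, which had 65.1, 68.9 and 67.4 CPM against 24.7, 25.5 and 25 CPM in empty vector cells (1.43 ± 0.07, adjusted p = 9.89e-19). STAT3 (0.44 ± 0.05) and JAK1 (0.16 ± 0.05) were also called higher in MITF overexpression cells, while IRF9 (0.39 ± 0.24) was not called. JAK2, STAT3 and JAK1 were 3 of 6 listed transducers. Of all genes, 28.6% were called higher there and 59.4% in either direction. In MITF siRNA cells against scrambled siRNA cells JAK1 had 84.4, 80.4 and 78.1 CPM in MITF siRNA libraries and 117, 124 and 123 CPM in scrambled siRNA libraries (-0.58 ± 0.05, adjusted p = 1.42e-11). JAK2 was also lower (-0.36 ± 0.07), and STAT3 (0.17 ± 0.05) and TYK2 (0.21 ± 0.08) were higher. The shares of all genes in that comparison were 18.7% higher and 16.7% lower.

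Of 8 tested inhibitors, SOCS3, which blocks the receptor kinases, had 15.4, 16.2 and 16.0 CPM in MITF overexpression libraries, against 34.9, 31.8 and 35.9 CPM in empty vector libraries (log2 fold change -1.11 ± 0.08, edgeR adjusted p = 3.25e-14). It was also lower in scrambled siRNA cells against empty vector cells (-0.45 ± 0.08), together with the phosphatase genes PTPN11 (-0.35 ± 0.05) and PTPN1 (-0.22 ± 0.05). No inhibitor was called higher there, where 18.9% of all genes were called higher and 19.6% lower. PIAS1, an inhibitor of STAT signalling, was higher in MITF overexpression cells (0.36 ± 0.08) and lower in MITF siRNA cells against scrambled siRNA cells (-0.23 ± 0.08). With MITF overexpression PTPN2 (0.18 ± 0.07) was also called higher and PTPN11 (-0.13 ± 0.05) lower, where 28.6% of all genes were called higher and 30.8% lower. With MITF siRNA against scrambled siRNA PIAS2 (0.21 ± 0.06) and PTPN11 (0.26 ± 0.05) were called higher, where 18.7% of all genes were called higher and 16.7% lower.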

How the data were processed

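RNA was measured in 12 libraries of A2058 cells, 3 in each of 4 groups taken from the sample titles. The authors deposited 1 table of raw counts, whole numbers for each gene and library without normalization. Per the labels' protocols the libraries were stranded total RNA, read as paired ends of 76 bases. Per the submitters' processing notes bcl2fastq 2.18.0, STAR 2.6.0, SAMtools 1.10, featureCounts 1.6.3 and the build hg19 were used. The sources used here do not give how strand and multiply fitting reads were handled, so members of gene families and overlapping genes are uncertain as single genes. 0 columns of per-sample values went unused.

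Genes were filtered by filterByExpr (minimum count 10) and scaled by TMM, and all 12 libraries entered 1 edgeR quasi-likelihood fit of group means with robust estimation (R 4.3.3, edgeR 4.0.16, limma 3.58.1), since 3 libraries a group give few degrees of freedom alone. P-values were adjusted by Benjamini-Hochberg over all 14297 genes tested and called under 0.05. Standard errors were taken as the absolute log2 fold change over the root of the F statistic. Ratios of low counts carry exact 95% binomial counting intervals, and 0 counts a floor of 3 counts per library. These steps were tested on simulated data, without the difference of responses. The simulation gave each gene the same spread in all groups, so it lacked the wider spread of the scrambled siRNA libraries. The genes named are the 41 members, MITF, called genes of the pathway lists, ligands and markers. The 8 printed sequences were chosen after the values were seen. 2 genes of the pathway and marker lists are not reported here. The members and lists were chosen with earlier results of these data known.

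The alternatives were RLE size factors, no filter, a minimum count of 30, a replicate block, only the libraries compared, each library left out and DESeq2 1.42.0. RefSeq promoter windows (GRCh38.p14) are not in the authors' build and were used for sequence only.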

Additional observations from a re-analysis of the deposited data

How the results depend on the processing

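No member's fold change reversed while called under any alternative, and 3435 single gene results kept their side of the threshold, 170 passed it only under an alternative and 126 lost it. For MITF overexpression against the empty vector, the members called changed from 7 higher and 3 lower to 21 higher and 8 lower (29 in all, against 30.8% and 31.8% of all genes) with only the libraries compared, to 17 in all with 7 lower (against 28.6% of all genes lower) by DESeq2, and to 5 lower with no filter on low counts (20.8%) or with the replicate block (30.4%). For MITF siRNA against scrambled siRNA, 10 were called lower with no filter, against 11.2% of all genes, and 5 in all with 3 lower with only the libraries compared, against 16.6% of all genes higher and 16.1% lower. Fewer libraries enter the estimate of spread in that alternative, and for the other changes the cause was not tested. Leaving out 1 library at a time gave 10 to 23 members called (7 to 15 higher, 3 to 8 lower) for overexpression, 3 to 20 (2 to 13 higher, 1 to 18 lower) for MITF siRNA against scrambled siRNA, 27 to 37 (26 to 36 higher, 1 lower) for scrambled siRNA against the empty vector, 25 to 36 (24 to 35 higher, 1 lower) for MITF siRNA against the empty vector and 10 to 21 (7 to 16 higher, 3 to 10 lower) for the difference of responses. In those fits 24.7% to 29.4% of all genes were called higher and 27.8% to 31.0% lower for overexpression, 14.4% to 18.5% and 13.9% to 17.8% for MITF siRNA against scrambled siRNA, 15.2% to 20.5% and 15.6% to 19.7% for scrambled siRNA against the empty vector, 18.1% to 21.9% and 17.8% to 22.1% for MITF siRNA against the empty vector, and 24.4% to 27.1% and 27.0% to 28.99% for the difference. Same-numbered libraries did not deviate together (correlations of -0.071 to 0.064 over genes). Deviations from means of 3 libraries hold counting noise, so this cannot show that the numbers carry no pairing. With the replicate block 8 members were called higher for overexpression (28.4% of all genes), 3 higher and 8 lower for MITF siRNA against scrambled siRNA (18.4% and 16.3%), 35 higher and 1 lower for scrambled siRNA against the empty vector (18.6% and 19.1%), 13 higher and 6 lower for the difference (26.9% and 29.5%) and 33 higher and 1 lower for MITF siRNA against the empty vector (21.7% and 20.4%). Depth limits XAF1, IFI27, IFITM1, RSAD2, BST2 and EPSTI1, which had 2 to 53 counts over the 3 empty vector libraries.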
